A study of Caenorhabditis elegans with 6 samples.

Results

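The genes *arid-1*, *Y53G8AL.4*, *K08D12.4* and *Y110A2AL.1* carried the largest fold gains of antisense 22G-RNAs in *eggd-1* mutant adults. They are 4 of the 19762 genes with a 22G-RNA read in any library. They were chosen by their difference between the untreated *eggd-1* and wild-type libraries among genes that averaged 50 counts or more there, so their values in that contrast are given as a description, without a test. The untreated libraries came from 2 samples of an *eggd-1* null mutant and 2 control samples labelled *pgl-1::RFP*, a strain in which the P granule protein PGL-1 is fused to a red fluorescent protein. A further pair of libraries, 1 from an *eggd-1* null mutant and 1 from the laboratory wild-type strain N2, was made from RNA oxidized with sodium periodate. All were pools of synchronized adults, taken as whole animals and grown at 20 °C on OP50 bacteria. The *eggd-1* mutants of the study carry a deletion of the open reading frame, and the labels of these libraries say only that the allele is null. The labels do not say whether the untreated *eggd-1* animals also carried *pgl-1::RFP*, so genotype and strain cannot be told apart in the untreated comparison.

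*eggd-1* encodes a germ granule protein with LOTUS domains, and germ granules are the perinuclear condensates in which *C. elegans* germ cells process small RNAs. RNA-dependent RNA polymerases copy 22G-RNAs from target transcripts, so that the small RNAs are antisense to the gene, and Argonaute proteins of the WAGO group and CSR-1 bind them. WAGO-bound 22G-RNAs are known for silencing their targets, whereas CSR-1 targets are expressed in the germline. Periodate attacks RNA 3′ ends that carry free hydroxyl groups. piRNAs, whose 3′ ends are methylated, are protected, and most 22G-RNAs are not.

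The libraries held between 19457486 and 31245662 reads mapped to the genome, and values are given in RPM, counts scaled to the number of these reads. A count of 3, the limit that a count of 0 allows, was worth between 0.0960 and 0.154 RPM. 22G-RNAs summed to 377418 and 384796 RPM in the untreated *eggd-1* libraries and to 405241 and 391943 RPM in the untreated wild-type libraries. After oxidation they summed to 10549 RPM in *eggd-1* and 10694 RPM in N2, with piRNAs at 864314 RPM in *eggd-1* and 861138 RPM in N2. 22G-RNAs of *eggd-1* itself stood at 0.366 and 0.469 RPM in untreated mutants, against 78.1 and 81.1 RPM in wild-type (log2 fold change −7.55, standard error 0.145, adjusted p = 9.38e-28 by the quasi-likelihood test of edgeR with Benjamini-Hochberg adjustment), and so did not go against the labels. Libraries of small RNAs hold no marker transcripts against which the tissue could be checked. In whole animals, fewer cells of a type and less RNA per cell cannot be told apart.

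*arid-1* (WBGene00044689) lies on chromosome V from 186167 to 201297 on the plus strand of WBcel235, with 5951 exonic nucleotides in 11 blocks. It encodes a protein with an AT-rich interaction domain, a DNA-binding fold, and has been found with SIN3 histone deacetylase complexes in *C. elegans*. Its exons held 31301 and 33126 antisense 22G-RNA counts in the untreated *eggd-1* libraries, against 1179 and 1271 in wild-type. In RPM these were 1430.3 and 1412 in *eggd-1* and 41.8 and 40.7 in wild-type, so that both mutant libraries stood far above both controls. The ratio of *eggd-1* to wild-type was 34.5 ± 0.751 (SD propagated from both groups, n = 2 each), with a fitted log2 fold change of 5.11 (standard error 0.0849). The replicates of this gene lay closer together than those of the other 3, which had fewer counts.

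*Y53G8AL.4* (WBGene00050917) is a short protein-coding gene on the minus strand of chromosome III, from 3249339 to 3250646, with 418 exonic nucleotides in 3 blocks. It had 35.1 and 31.7 RPM of 22G-RNAs in *eggd-1* (768 and 743 counts), against 0.426 and 0.576 RPM in wild-type (12 and 18 counts). The groups did not overlap, and the ratio was 66.6 ± 14.9 (SD, n = 2 each; log2 fold change 6.03, standard error 0.154), the highest among genes averaging 50 counts or more. The size of this ratio rests on the low wild-type counts.

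*K08D12.4* (WBGene00019538) lies on the plus strand of chromosome IV from 1707296 to 1708691, with 545 exonic nucleotides in 3 blocks. Its 22G-RNAs were at 69.3 and 75.3 RPM in *eggd-1* (1517 and 1767 counts), against 1.14 and 1.76 RPM in wild-type (32 and 55 counts). The wild-type replicates of this gene differed from each other more than its mutant replicates did, by ratio, and still lay far below them. The ratio was 49.96 ± 15.5 (SD, n = 2 each; log2 fold change 5.62, standard error 0.120).

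*Y110A2AL.1* (WBGene00022438) lies on the plus strand of chromosome II from 2875101 to 2876768, with 584 exonic nucleotides in 3 blocks. It had 46.2 and 43.2 RPM in *eggd-1* (1011 and 1013 counts), against 2.84 and 2.14 RPM in wild-type (80 and 67 counts), again without overlap. The ratio was 17.9 ± 3.64 (SD, n = 2 each; log2 fold change 4.17, standard error 0.111). No role is given here for *Y53G8AL.4*, *K08D12.4* or *Y110A2AL.1*.

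**Figure D1:**
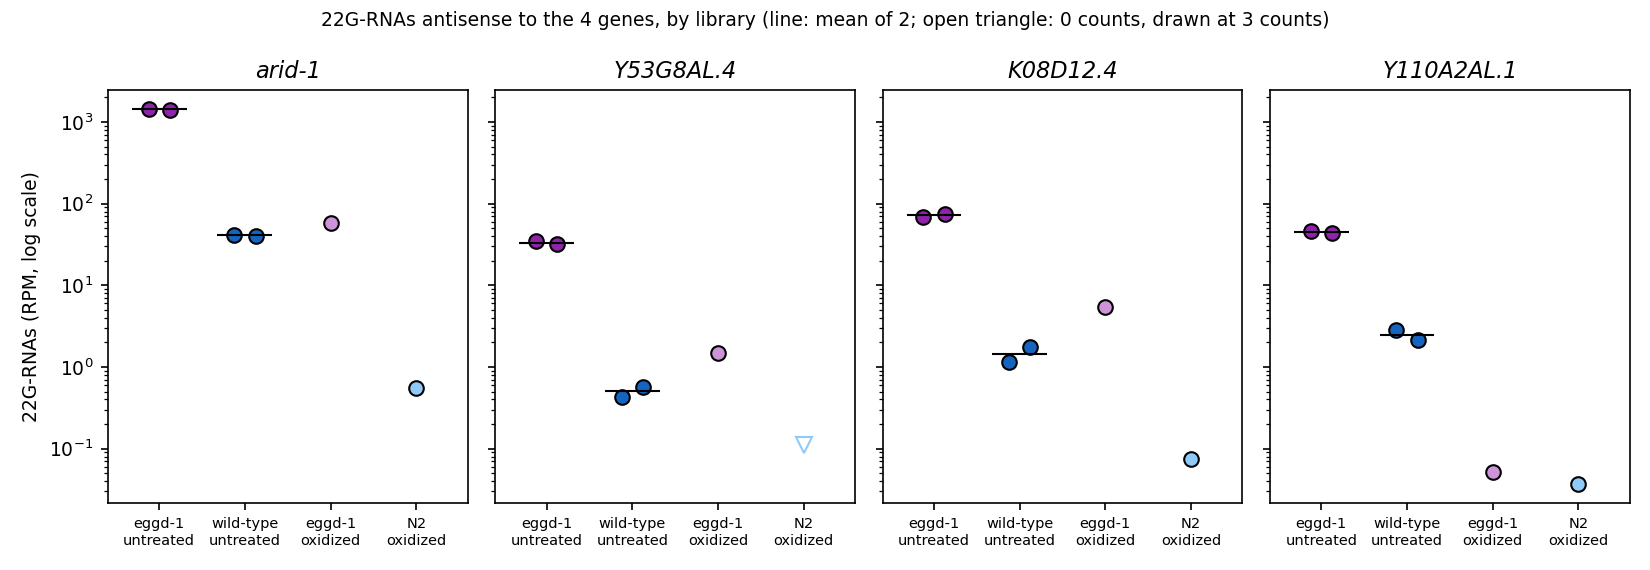
22G-RNA levels of the 4 genes in each of the 6 libraries, in RPM on a log axis. Circles are libraries, lines the mean of 2 libraries, and an open triangle marks a count of 0 drawn at 3 counts. *arid-1* sits at 1430.3 and 1412 RPM in untreated *eggd-1* and stays above N2 after oxidation, at 58.1 against 0.553 RPM, whereas oxidized *Y110A2AL.1* is at 0.0514 RPM in *eggd-1* and 0.0369 RPM in N2.

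The rule that chose the genes set their order. Among 8248 genes averaging 50 counts or more, *Y53G8AL.4*, *K08D12.4*, *arid-1* and *Y110A2AL.1* held ranks 1 to 4 by log2 fold change. Just outside was *zip-7*, a gene for a basic leucine zipper protein, with 44.5 and 44.1 RPM in *eggd-1* and 2.75 and 2.37 RPM in wild-type (log2 fold change 4.11, against 4.17 for *Y110A2AL.1*). *F31C3.6*, at a log2 fold change of 3.46, and *K10D2.8*, at 3.30, followed at a wider distance. The border between *Y110A2AL.1* and *zip-7* was thinner than the spread between replicates: without wild-type replicate 2, *zip-7* stood at 4.00 and *Y110A2AL.1* at 3.97. The minimum of 50 counts also mattered, since *C04A2.15*, with a mean of 31.25 counts, had a log2 fold change of 5.22.

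For background, 239 of 11737 tested genes, or 2.04%, had 4-fold or more the wild-type level in *eggd-1* and passed the edgeR test at 0.05 after Benjamini-Hochberg adjustment. Only 5 of the 8248 genes averaging 50 counts or more, or 0.0606%, were at least 16-fold higher: the 4 genes and *zip-7*. This count follows from the choice of the genes.

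**Figure D2:**
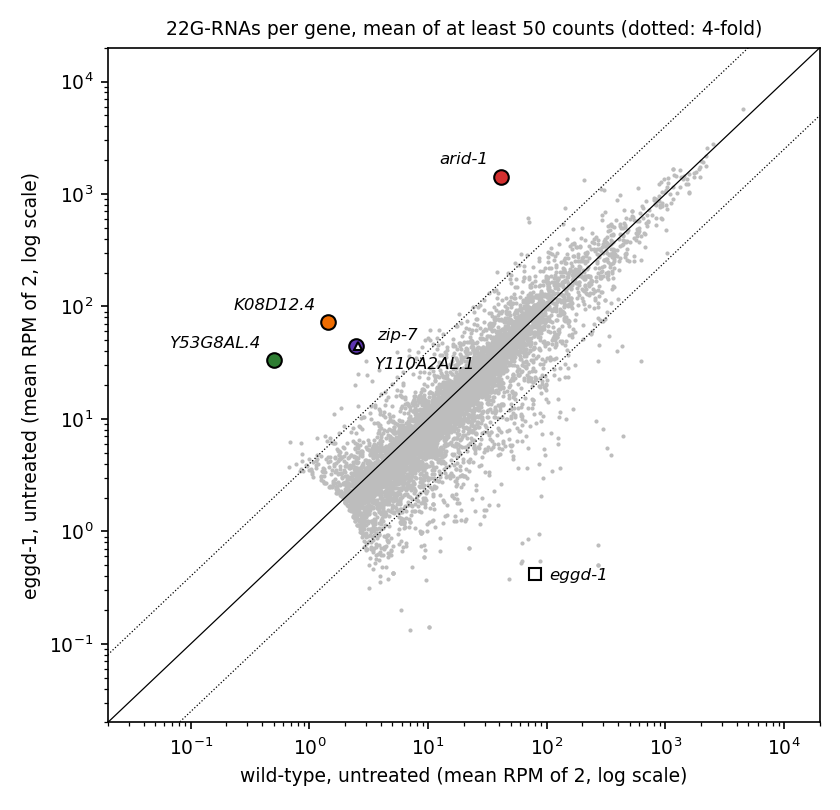
Mean 22G-RNA level of each gene in the 2 untreated *eggd-1* libraries (vertical axis, RPM) against the 2 untreated wild-type libraries (horizontal axis, RPM), both on log axes, for 8248 genes averaging 50 counts or more. Filled circles are the 4 genes, the triangle *zip-7* (drawn over *Y110A2AL.1*), the square *eggd-1*, and dotted lines mark a 4-fold difference. The 4 genes lie at ratios of 17.9 to 66.6, and *arid-1* lies at a mutant level some way above the other 3.

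The order by RPM gained differed from the order by factor. *arid-1*, at rank 3 by fold change, had the largest gain of the 8248 genes, 1380 RPM. *K08D12.4* gained 70.9 RPM and ranked 181, *Y110A2AL.1* gained 42.2 RPM and ranked 292, and *Y53G8AL.4* gained 32.9 RPM and ranked 384. After *arid-1*, the largest gains were at *linc-22*, a long intergenic non-coding RNA (1257 RPM, log2 fold change 0.36), *set-16*, which encodes a histone H3 lysine methyltransferase of the MLL type (1118 RPM, log2 fold change 2.68), and *Y54E2A.4* (816 RPM, log2 fold change 1.93).

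Together, the 4 genes took 0.419% and 0.406% of all 22G-RNA counts in untreated *eggd-1*, against 0.0114% and 0.0115% in wild-type. Nearly all of this was *arid-1*, which held 90.5% and 90.4% of the counts of the 4 genes in *eggd-1* and 90.5% and 90.1% in wild-type. Of the 57432 RPM gained over all genes that were higher in *eggd-1*, the 4 genes made up 2.66% and *arid-1* alone 2.40%.

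Levels of the genes can be compared only per exonic length. Per kilobase, *arid-1* had a mean of 239 RPM in *eggd-1* and 6.93 RPM in wild-type. *K08D12.4* had 133 RPM per kilobase in *eggd-1* and 2.66 in wild-type, *Y53G8AL.4* had 79.9 in *eggd-1* and 1.20 in wild-type, and *Y110A2AL.1* had 76.5 in *eggd-1* and 4.27 in wild-type. In *eggd-1*, *Y53G8AL.4*, at 84.0 and 75.8 RPM per kilobase, and *Y110A2AL.1*, at 79.1 and 74.0, overlapped, while the other neighbours in the order did not. In wild-type the order was another one, with *Y110A2AL.1* second and *Y53G8AL.4* last, and no neighbours overlapped.

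Among all genes with a 22G-RNA read, *arid-1* held ranks 191 of 16338 and 195 of 16484 per kilobase in *eggd-1*, against 5552 of 16944 and 5560 of 17093 in wild-type. The other 3 genes held ranks from 329 to 562 in *eggd-1*, against ranks from 6372 to 8740 in wild-type. All 4 held a higher place in the order in both *eggd-1* libraries than in either wild-type library. Their choice by these same libraries set this direction in advance.

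The counts of the 4 genes were whole numbers in all 6 libraries, as deposited and without rounding. Reads with several genome locations, or that overlap several genes, were divided between them, so a gene that shares reads usually has fractional counts. Whole counts in all 6 libraries were found for 4772 of the 8248 genes (57.9%).

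Oxidized RNA gave a view of the genes that the choice had not used, with 1 library a genotype and therefore without a test. 22G-RNAs of *arid-1* had 1130 counts (58.1 RPM) in oxidized *eggd-1*, against 15 counts (0.553 RPM) in oxidized N2. This is a ratio of 105, with an exact conditional binomial 95% interval from 63.4 to 188 that covers counting error only. With counts under 3 taken as 3, it was the highest ratio among the 4120 genes with at least 10 counts in both oxidized libraries together. Of these, 335 genes, or 8.13%, were at least 4-fold higher in oxidized *eggd-1* on the same terms. Of the 239 genes called higher in untreated *eggd-1*, only 43 had 10 or more counts in both oxidized libraries together. Of these, 36 were also at least 4-fold higher after oxidation. A gene low in N2 reaches that minimum mainly through its *eggd-1* count, which favours a high ratio, so this share is a description. *Y110A2AL.1* did not reach the minimum.

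*K08D12.4* had 107 counts (5.50 RPM) in oxidized *eggd-1*, against 2 counts (0.0738 RPM) in oxidized N2, a ratio of 74.5 with an interval from 20.1 to 623. *Y53G8AL.4* had 29 counts (1.49 RPM) in oxidized *eggd-1* and 0 in oxidized N2, a ratio of 13.5 when N2 is taken at 3 counts, and the exact interval of its counts starts at 10.3. For both genes, then, the *eggd-1* library was also the higher one after oxidation. *Y110A2AL.1* was unlike them, with 1 count (0.0514 RPM) in oxidized *eggd-1* and 1 count (0.0369 RPM) in oxidized N2. Its ratio of 1.39 has an interval from 0.0177 to 109, so that no difference was detectable at this depth. With miRNA counts as library size, the ratios were 69.95 for *arid-1*, 49.7 for *K08D12.4*, 8.98 for *Y53G8AL.4* against 3 counts and 0.929 for *Y110A2AL.1*, whose direction thus turned.

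The low count of *Y110A2AL.1* in oxidized *eggd-1* can be set against what the treatment left of other genes. Of 3077 genes averaging 500 counts or more in untreated *eggd-1*, the oxidized library kept a median of 1.54% of the untreated RPM, with quartiles of 0.890% and 2.92%. *arid-1* kept 4.09%, *Y53G8AL.4* 4.46% and *K08D12.4* 7.60%, more than 83.9%, 87.7% and 97.2% of these genes in the same order. *Y110A2AL.1* kept 0.115%, and only 0.390% of the genes kept less. In wild-type its share was 1.48%, from 1 count in oxidized N2 and 80 and 67 untreated counts. The wild-type median was 1.09%, over 4194 genes averaging 500 counts or more in untreated wild-type. The low share of *Y110A2AL.1* was thus seen in *eggd-1* only.

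At the *eggd-1* median share *Y110A2AL.1* would have had 13.4 counts in the oxidized *eggd-1* library. Its 1 count has an exact Poisson 95% interval of 0.0253 to 5.57 counts, the upper end of which is 0.641% of the untreated level. It was not the only gene so low, since 54 of the 3077 genes had at most 1 count. Among the 38 genes of this depth that were at least 4-fold higher in untreated *eggd-1*, the median share was 3.99% and the quartiles 3.46% and 5.24%, and *Y110A2AL.1* and *K08D12.4* had the lowest and the highest share. The 21 genes called 4-fold lower had a median of 2.42%, and the 3018 genes called in neither direction 1.52%. These shares divide by the same untreated *eggd-1* libraries that chose the genes, and treatment and library cannot be told apart in them.

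**Figure D3:**
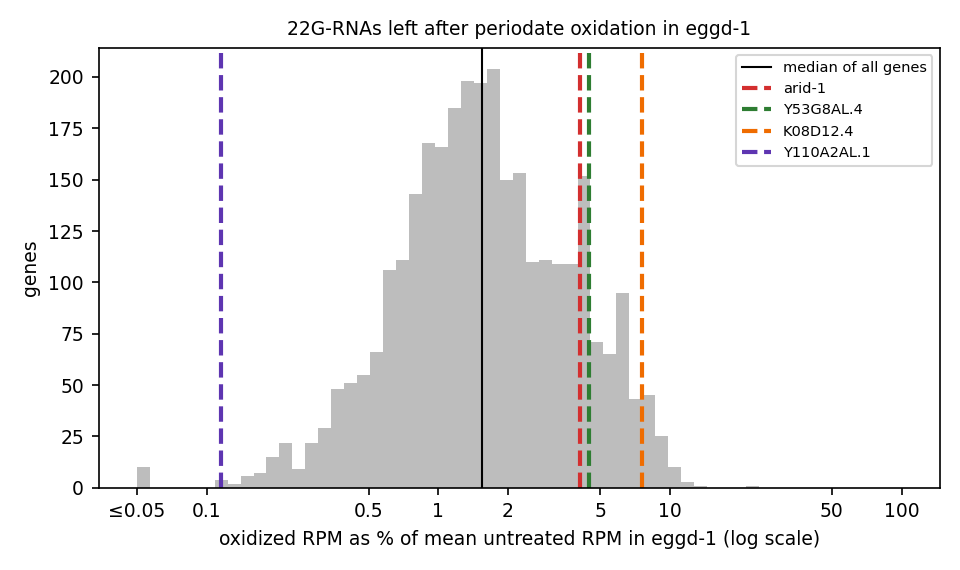
Share of the untreated 22G-RNA level left in the oxidized *eggd-1* library (horizontal axis, percent of the untreated mean RPM, log scale), as a histogram over 3077 genes averaging 500 counts or more in untreated *eggd-1*. The black line is the median, 1.54%, and dashed lines mark the 4 genes. *arid-1*, *Y53G8AL.4* and *K08D12.4* lie on the right at 4.09% to 7.60%, and *Y110A2AL.1* lies in the left tail at 0.115%.

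In the comparison of oxidized libraries the wild-type strain was N2 and not *pgl-1::RFP*. *arid-1*, *K08D12.4* and *Y53G8AL.4* were higher in untreated *eggd-1* than in untreated *pgl-1::RFP*, and higher in oxidized *eggd-1* than in oxidized N2. The oxidized comparison had no replicate libraries and no test. The labels do not say whether the untreated and oxidized *eggd-1* animals were of the same strain. Whether strain background contributed to the differences was not tested. Of the genes next in rank, oxidized *zip-7* had 2.47 RPM in *eggd-1* and 0.332 RPM in N2, a ratio of 7.43. Oxidized *set-16* had 45.2 RPM in *eggd-1* and 2.91 RPM in N2, a ratio of 15.5. The ratio was 9.75 for *K10D2.8*, 6.97 for *F31C3.6*, 6.65 for *Y54E2A.4* and 1.47 for *linc-22*.

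26G-RNAs are longer siRNAs that the Argonautes ALG-3/4 and ERGO-1 bind and that can trigger 22G-RNAs at the same gene. Counts of 26G-RNAs at the 4 genes were at most 10 in any library. *arid-1* had 7 and 10 counts of 26G-RNAs in untreated *eggd-1* (0.320 and 0.426 RPM), against 0 and 2 counts in untreated wild-type. *K08D12.4* had 1 and 2 counts in untreated *eggd-1* and 0 in every other library, *Y53G8AL.4* had 1 count in a single *eggd-1* library, and *Y110A2AL.1* had none in any library. Over all genes, 26G-RNAs summed to 2195 and 2061 RPM in untreated *eggd-1*, against 1374 and 1403 RPM in wild-type. In all, 8075 genes had a 26G-RNA read in any library, and the levels of the 4 genes were not ranked among them. Neither the ALG-3/4 nor the ERGO-1 class of the files held any of the 4 genes.

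The files assign genes to the Argonautes or factors with which their 22G-RNAs are associated, and to sets by germline expression. The 4 genes shared no single class. *arid-1* was in the oogenic, CSR-1, WAGO-1 and WAGO-4 classes, *Y53G8AL.4* in the spermatogenic class alone, *K08D12.4* in the gender-neutral class alone, and *Y110A2AL.1* in the HRDE-1, MUT-16, PRG-1, WAGO-1 and WAGO-4 classes. HRDE-1 is the nuclear Argonaute of heritable silencing, MUT-16 the scaffold of Mutator foci, and PRG-1 the Argonaute of piRNAs.

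The medians of the classes that hold any of the 4 genes, leaving the spermatogenic class aside, ran from −0.53 to −0.12 in log2 fold change. Only the CSR-1 (−0.12) and WAGO-4 (−0.15) medians lay above the −0.18 of all tested genes. In the spermatogenic class, 160 of 1584 tested genes (10.1%) were called higher in *eggd-1*, *Y53G8AL.4* among them, against 2.04% of all tested genes, and the class median was 0.68. By contrast, 12 of 4002 CSR-1 genes (0.300%) and 3 of 1615 oogenic genes (0.186%) were called higher, and *arid-1* is 1 of the genes in both counts. In the classes of *Y110A2AL.1*, 8 of 1251 HRDE-1 genes (0.639%) and 4 of 1414 WAGO-1 genes (0.283%) were called higher, *Y110A2AL.1* counted in both. Called lower were 11.2% of HRDE-1 genes and 9.58% of PRG-1 genes, against 4.81% of all tested genes.

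Genes with exactly the same set of classes were also compared. Among the 89 other genes with the classes of *arid-1*, the largest log2 fold change was 1.27, against its 5.11. Among the 28 other genes with the classes of *Y110A2AL.1* it was 0.84, against its 4.17. Of 619 other genes in the spermatogenic class alone, 55 were called higher, up to a log2 fold change of 3.54, below the 6.03 of *Y53G8AL.4*. Of 1171 other genes in the gender-neutral class alone, 11 were called higher, up to the 4.11 of *zip-7*. By oxidized share in *eggd-1*, *Y110A2AL.1* at 0.115% also lay below the median of the MUT-16 class, 3.24% over 1003 genes. The median of the HRDE-1 class, 2.61% over 593 genes, was higher too. *Y53G8AL.4*, at 4.46%, lay above the median of the spermatogenic class, 3.29% over 202 genes. That class median was itself above the 1.54% of all genes.

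The genes next to the 4 on the chromosome were not used to choose them and were tested in the same fit over all genes. The annotation holds 24 genes within 10 kb, of which 20 had a 22G-RNA read and 13 had enough counts to be tested. At the 4-fold threshold none was higher in *eggd-1* and 1 was lower, against 2.04% higher and 4.81% lower over all tested genes (edgeR; 9 of the 13 had an unadjusted p below 0.05, and DESeq2 called none in either direction at 4-fold, with 6 below 0.05). At any fold, 3 of the 13 were higher and 6 lower at an adjusted p below 0.05. These shares are near the 21.7% higher and 40.8% lower over all tested genes and so no result about the neighbours. With DESeq2, 3 were higher and 3 lower. Their log2 fold changes ran from −2.02 to 0.57, with a median of −0.13 against −0.18 over all tested genes.

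Around *arid-1*, *trpp-1*, which starts 303 bp away on the same strand and encodes a subunit of the TRAPP vesicle-tethering complex, had 23.3 and 24.4 RPM in *eggd-1* and 22.2 and 26.9 RPM in wild-type (log2 fold change −0.05, adjusted p = 0.665 by edgeR with Benjamini-Hochberg adjustment). On the other side at 995 bp, the cullin gene *cul-3* had 16.5 and 18.0 RPM in *eggd-1* and 20.3 and 19.7 RPM in wild-type. Its log2 fold change of −0.21 passed the test (adjusted p = 0.0365 in the same fit) but not with TMM scaling (−0.06, adjusted p = 0.517) or DESeq2 (−0.03, adjusted p = 0.865). In edgeR it was also lost without wild-type replicate 1 (adjusted p = 0.167), wild-type replicate 2 (adjusted p = 0.0842) or *eggd-1* replicate 1 (adjusted p = 0.195). Neither of the genes next to *arid-1* shared its gain. Only 5 of 8248 genes averaging 50 counts or more were at least 16-fold higher, so this says nothing particular about the neighbours.

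Farther out, *lec-12*, a galectin gene, was higher in *eggd-1*, at 259 and 254 RPM against 188 and 176 RPM in wild-type (log2 fold change 0.49, adjusted p = 3.60e-07 by edgeR, Benjamini-Hochberg). *DC2.5*, at 8848 bp on the other strand, was the single neighbour past 4-fold. It fell to 4.57 and 5.80 RPM in *eggd-1*, against 20.4 and 21.8 RPM in wild-type (log2 fold change −2.02, standard error 0.112, adjusted p = 3.27e-16 from the same test). It lay at the threshold, and its log2 fold change was −1.88 with TMM scaling, −1.85 with DESeq2, −1.97 without wild-type replicate 2 and −1.86 without *eggd-1* replicate 1.

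Around *Y53G8AL.4*, *nduf-9*, which encodes a subunit of mitochondrial complex I and lies 764 bp away on the same strand, had 5.12 and 4.05 RPM in *eggd-1*, against 6.99 and 6.58 RPM in wild-type (log2 fold change −0.57, adjusted p = 9.59e-04 by edgeR with Benjamini-Hochberg adjustment). With DESeq2 it was −0.39 and did not pass (adjusted p = 0.154). *Y53G8AL.1*, on the other strand, was higher in *eggd-1* by a log2 fold change of 0.57 (adjusted p = 1.06e-04). *Y53G8AL.3*, 815 bp away on the other side, had no 22G-RNA read in the untreated or the oxidized libraries. The 3 further genes on that side within 10 kb had at most 0.142 RPM in any library, and the nearest tested one, *Y53G8AM.8* at 16540 bp, fell to 114.7 and 119 RPM in *eggd-1*, against 416 and 381 RPM in wild-type (log2 fold change −1.77, adjusted p = 1.90e-19).

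*K08D12.4* and *pbs-1*, the gene for a proteasome subunit, lie 123 bp apart on opposite strands. *pbs-1* had 20.2 and 19.4 RPM in *eggd-1* and 22.7 and 20.7 RPM in wild-type (log2 fold change −0.13, adjusted p = 0.173 by edgeR, Benjamini-Hochberg). The next gene, *K08D12.3*, fell to 8.0 and 7.72 RPM in *eggd-1*, against 13.9 and 12.1 RPM in wild-type (log2 fold change −0.73, adjusted p = 1.28e-06). On the left, *bus-2* had too few reads for the test, and the nearest tested gene, *Y41D4B.4* at 37002 bp, had a log2 fold change of −0.12 (adjusted p = 0.182).

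*Y110A2AL.1* overlaps the gene of a non-coding RNA, *Y110A2AL.17*, on the other strand. Its neighbour *pigw-1*, at 651 bp on the other strand, had 9.0 and 9.81 RPM in *eggd-1* and 9.26 and 9.46 RPM in wild-type (log2 fold change 0.01, adjusted p = 0.963 by edgeR, Benjamini-Hochberg). *Y110A2AL.10*, at 3185 bp on the other strand, fell to 77.5 and 73.7 RPM in *eggd-1*, against 187 and 161 RPM in wild-type (log2 fold change −1.20, adjusted p = 1.18e-14).

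**Figure D4:**
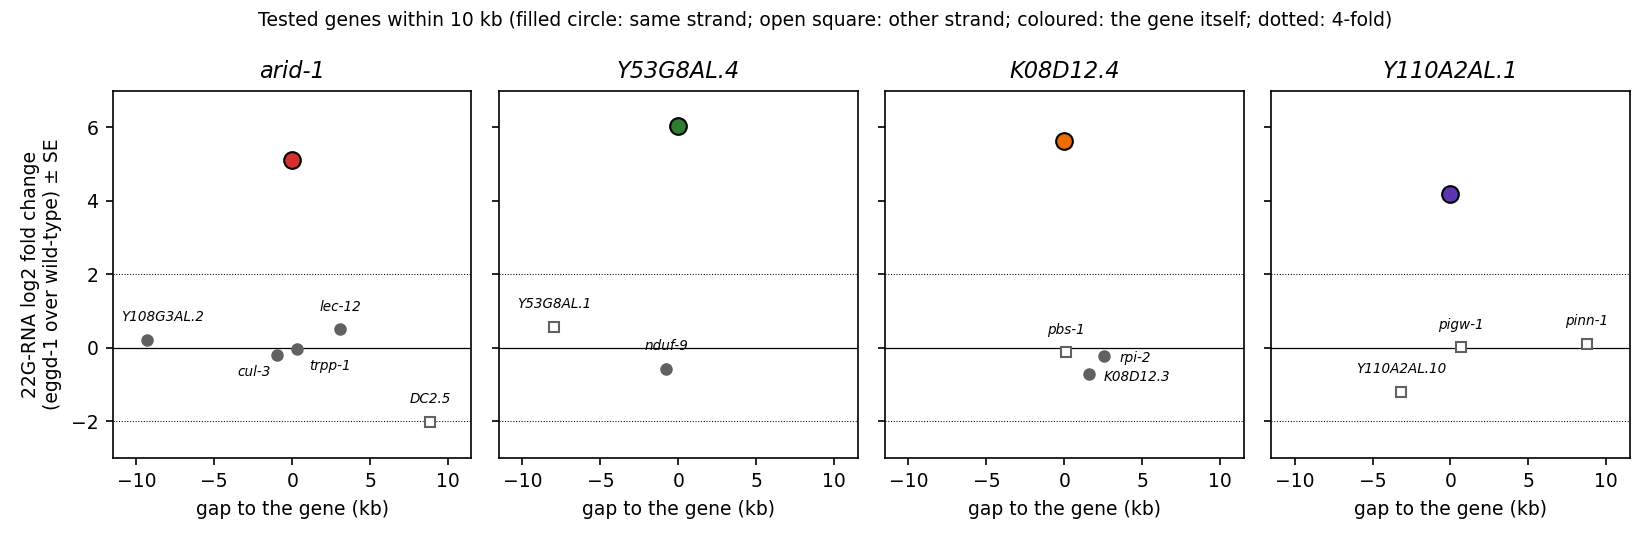
Log2 fold change of 22G-RNAs, *eggd-1* over wild-type (vertical axis), against the gap in kilobases to each of the 4 genes (horizontal axis, 0 at the gene), for the 13 tested genes within 10 kb. Circles are genes on the same strand, open squares genes on the other strand, error bars standard errors (smaller than most symbols), and dotted lines mark 4-fold. The 4 genes stand at 4.17 to 6.03 and their neighbours between −2.02 and 0.57.

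*arid-1* is known for its place beside SIN3 deacetylase complexes, so other genes with an AT-rich interaction domain or in these complexes were looked up. The list held 12 genes, 11 of them with enough counts to be tested. None was 4-fold different in either direction, against 6.85% of all tested genes (edgeR; 6 of the 11 had an unadjusted p below 0.05, and DESeq2 called none at 4-fold, with 3 below 0.05). At any fold, 2 were higher and 4 lower at an adjusted p below 0.05, shares near the 21.7% higher and 40.8% lower over all tested genes and so no result about the list. The median log2 fold change was −0.13, against −0.18 over all tested genes.

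*sin-3*, the scaffold of these complexes, had 55.9 and 58.6 RPM in *eggd-1*, against 42.3 and 42.5 RPM in wild-type (log2 fold change 0.43, adjusted p = 4.13e-06 by edgeR with Benjamini-Hochberg adjustment). *hda-3*, a class I histone deacetylase gene, had 89.2 and 84.5 RPM in *eggd-1*, against 64.4 and 62.5 RPM in wild-type (log2 fold change 0.45, adjusted p = 1.66e-06). These were the 2 higher genes.

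The 4 lower genes were *rbr-2*, a histone H3 lysine 4 demethylase gene (−0.39), the deacetylase gene *hda-1* (−0.32), the chromodomain gene *mrg-1* (−0.21) and *rba-1*, which encodes a histone-binding WD40 protein (−0.22), with adjusted p-values from 3.44e-05 to 0.0236 in the same fit. With DESeq2's size factors none of the list was lower at an adjusted p below 0.05, while 2 were higher. With TMM scaling *mrg-1* (adjusted p = 0.426) and *rba-1* (adjusted p = 0.407) did not pass in edgeR. *mrg-1* was also lost without wild-type replicate 2 or *eggd-1* replicate 1, and *rba-1* without wild-type replicate 1 or *eggd-1* replicate 1. *let-526* and *swsn-7*, which encode subunits of SWI/SNF chromatin remodelers, had log2 fold changes of −0.10 (adjusted p = 0.213) and −0.03 (adjusted p = 0.757) by edgeR, Benjamini-Hochberg. Log2 fold changes over the list ran from −0.39 to 0.45, against 5.11 for *arid-1*, which was chosen by this value.

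Profiles over the 6 libraries were compared by the Euclidean distance between centred log2(RPM + 0.1) values, among genes averaging 50 counts or more. *Y53G8AL.4* and *K08D12.4* were each other's nearest gene, at a distance of 0.801, where the median distance from *Y53G8AL.4* to all genes was 7.18. *zip-7* came next for both, at 2.06 from *Y53G8AL.4* and 2.36 from *K08D12.4*. These genes share the libraries and, by the rule, the direction of their untreated difference, so the distances are a description.

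Nearest to *arid-1* were *ubr-5*, which encodes a HECT-type ubiquitin ligase, at 2.21, and *gcn-1*, which encodes a translation-associated protein of the GCN1 family, at 2.44, with *K08D12.4* at 2.50 after them. *ubr-5* had 617 and 610.3 RPM in untreated *eggd-1* and 68.2 and 71.2 RPM in untreated wild-type, then 36.2 RPM in oxidized *eggd-1* and 0.959 RPM in oxidized N2. *gcn-1* had 577 and 550.2 RPM in untreated *eggd-1* and 72.0 and 68.9 RPM in untreated wild-type, then 32.02 RPM in oxidized *eggd-1* and 1.07 RPM in oxidized N2. In both, unlike in *arid-1*, oxidized *eggd-1* lay below untreated wild-type.

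Nearest to *Y110A2AL.1* were *nhr-171*, a nuclear hormone receptor gene, and *R07E5.19*, both at 2.18, and *T20B6.2*, at 2.24. None of the other 3 genes was among its 3 nearest. *nhr-171* had 17.8 and 15.3 RPM in untreated *eggd-1*, against 3.48 and 4.54 RPM in untreated wild-type, and no count in either oxidized library.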

How the data were processed

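Small RNA tables of 6 libraries of adult *C. elegans* were used. The authors used TrimGalore for trimming, merged identical reads, set structural RNA aside and mapped what was left with Bowtie (-v 0, -m 1000) to WormBase WS279; the versions of these tools are not given in the sources used here. Reads antisense to genes, 21 to 23 nucleotides long and starting with G or A, were their 22G-RNAs. The deposited tables hold expected counts, in which the authors divided each read by its genome locations and overlapping features. They also hold RPM, which the authors scaled to genome-mapped reads. The ratio of both columns gave these reads per library. Genes with no entry in a library were taken as 0, and rRNA-derived siRNAs were not included.

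Expected counts of the 4 untreated libraries were rounded, and the quasi-likelihood test of edgeR 4.0.16 was run in R 4.3.3, with genome-mapped reads as library size, genotype as the only term and a minimum count of 10 in filterByExpr. A call was a 4-fold difference with p below 0.05 after Benjamini-Hochberg adjustment over all genes tested. Standard errors were the log2 fold change divided by the root of F. The SD of each ratio of means was propagated from the relative SDs of both genotypes and is not a spread of observed ratios. Functions were tested on simulated data with known changes. Oxidized libraries, 1 per genotype, entered no test (scipy 1.17.1, Python 3.11.15). All intervals and the limit of 3 counts cover counting error only, since the reads carry no molecular identifiers. Replicates are separate samples by their labels, and the study calls them biological. Between replicates, chi-square per degree of freedom was 2.38 in *eggd-1* and 2.67 in wild-type.

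Genes named are the 4 genes, those next in rank by fold change or by RPM gained, genes within 10 kb, the list around SIN3 and the AT-rich interaction domain, *eggd-1*, and the 3 nearest profiles of each gene. *C04A2.15* was named after its values were seen. The 4 genes and the lists were chosen with earlier results of these data known. Names and coordinates come from Ensembl 115 (WBcel235, the assembly of WS279), exonic lengths from its merged exons. Whether exon sequences of the genes are unique was not analysed here.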

Additional observations from a re-analysis of the deposited data

How the results depend on the processing

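All 4 genes kept a positive log2 fold change under the 11 alternatives: 5.02 to 5.29 for *arid-1*, 5.84 to 6.27 for *Y53G8AL.4*, 5.36 to 5.99 for *K08D12.4* and 3.97 to 4.38 for *Y110A2AL.1*. *arid-1*, whose replicates lay close together, moved by more than their spread to 5.25 with TMM scaling, 5.02 with miRNA counts as library size and 5.29 with DESeq2. The median of all genes was −0.18, −0.03 with TMM and −0.26 with miRNA counts. Higher and lower calls over all genes numbered 239 and 565 (29.7% higher), 315 and 479 with TMM (39.7% higher), and 335 and 453 with DESeq2 (42.5% higher). Higher calls numbered 369 without a filter and 63 at a mean of at least 50 counts (13.9% of calls there). Genes within 10 kb called in either direction numbered 0 with TMM and with DESeq2, and 0 to 1 when a library was left out. With a library left out, the lone library of that genotype was assumed to vary like the other genotype's, and 216 to 294 genes were higher and 566 to 648 lower. With miRNA counts as library size the oxidized ratios were lower for all 4 genes: 69.95 for *arid-1*, 49.7 for *K08D12.4*, 8.98 for *Y53G8AL.4* against 3 counts, and 0.929 for *Y110A2AL.1*, which turned its direction. Untreated libraries share replicate numbers, but same-numbered deviations correlated by 0.0776 over 8248 genes, so the numbers were not taken as pairing, and a replicate block gave 238 higher and 563 lower. Single counts after oxidation limit *Y110A2AL.1*, and the strain difference cannot be told apart from genotype in the untreated libraries.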
